A study of Homo sapiens with 12 samples.

Results

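The zinc finger genes on human chromosome 19 were followed through 6 RIP-seq peak lists from HepG2, an established liver cancer cell line. RIP-seq sequences the RNA that is pulled down with a protein, and a peak is an exonic stretch in which that RNA exceeded the input RNA. The members were all genes whose name in the lists was ZNF followed by a number and whose peaks lay on chromosome 19. There were 185 such names among the 10830 gene names with a peak. In GENCODE release 44 (GRCh38), 184 of them were protein coding and ZNF781 was a pseudogene. The annotation held 249 protein coding ZNF genes on the chromosome, and this number was used as the denominator of shares. ZNF875, listed under its older name HKR1, fell outside the name rule but is counted among the 249.

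The cells had been stably infected with pmiRNA1-3XFlag-METTL16, pSIN4-3XFlag-eIF3a or pSIN4-3XFlag-eIF3b, so each protein was overexpressed as a Flag fusion. METTL16 is an RNA methyltransferase, and eIF3a and eIF3b are subunits of a translation initiation factor. All cells were cross-linked with ultraviolet light, and each protein had 2 RIP replicates and 2 inputs. The labels name a Flag antibody in the METTL16 and eIF3b pull-downs and an eIF3a antibody in the eIF3a pull-down, while the deposited lists are all named for Flag. If the labels hold, antibody and protein cannot be told apart for eIF3a. No list of a control antibody was used here. Lists ran from 12921 to 21733 peaks, and no read counts were used, so the depth behind a peak is unknown. Of 10 liver markers checked, 9 had a peak in some list, SERPINA1 and HNF4A had one in all 6, and TTR had none. A peak list holds enrichment over input and not expression, so a gene without a peak may be either unexpressed or not enriched.

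Many chromosome 19 ZNF genes belong to the KRAB zinc finger family, which expanded through repeated local duplication and lies in clusters along the chromosome. Proteins of this family hold a KRAB domain, which recruits the co-repressor TRIM28, and a row of C2H2 zinc fingers that binds DNA, with many members directed at transposable elements. The fingers are joined by a short conserved linker and are usually coded without interruption by introns, so that the whole finger array lies in the last coding exon and is followed by the 3′ UTR.

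The sequences below mark places on these transcripts. The first set marks the repeated finger array. The second holds 3 of the 3′ UTR sites whose capital letters lay under a peak in every list. The linker sequences were read on the transcript strand from the coding sequences. Capitals mark the codons of the linker and the lower-case letters the histidine codon that precedes them.
Linker in 207 sites of 62 genes: catACTGGAGAGAAACCC
Linker in 162 sites of 63 genes: catACTGGAGAGAAACCT
Linker in 118 sites of 56 genes: cacACTGGAGAGAAACCC
Linker in 44 sites of 33 genes: cacACTGGAGAGAAACCT
These were the commonest of 203 distinct linker sequences, found at 1439 sites in 213 of the 249 genes.

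The second set holds 30-base windows from 3′ UTRs, read 5′ to 3′ on the transcript strand from GRCh38. Capitals mark TAATCCCAG or its reverse complement CTGGGATTA, 9 letters that occur in the consensus of Alu, the commonest repeat element of the human genome. The letters were chosen after the peak sequences had been seen. In each window the 9 letters lay wholly under a peak in all 6 lists.
ZNF101, chr19:19682341-19682370, plus strand: tccgaagcatCTGGGATTAcaggcgcacgc
ZNF264, chr19:57216220-57216249, plus strand: cgtgtgcctgTAATCCCAGctgctgggggg
ZNF562, chr19:9650825-9650854, minus strand: accctcagtagCTGGGATTAttggcatgca
Of the 184 members with a gene model, 88 (47.8%) held these letters somewhere in the 3′ UTR.

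The first question was how many of these genes each protein's lists held. METTL16 had a peak on 24.5% and 25.3% of the 249 genes in replicates 1 and 2, beside 28.9% and 31.4% of all protein coding genes. eIF3a had a peak on 57.0% and 32.5% of them, beside 40.4% and 25.9% of all. eIF3b had a peak on 47.0% and 51.4%, beside 40.0% and 37.5% of all. The share was thus below that of all genes in both METTL16 lists, with ratios of 0.847 and 0.805, and above it in all 4 eIF3 lists, with ratios of 1.18 to 1.41. METTL16 had a mean share of 24.9% ± 0.568 (SD, n = 2), eIF3a of 44.8% ± 17.3 (SD, n = 2) and eIF3b of 49.2% ± 3.12 (SD, n = 2). METTL16 lay 19.9 percentage points below eIF3a and 24.3 points below eIF3b, and its replicates did not overlap with those of either (exact permutation test, two-sided, p = 0.333 for each, the smallest that 2 against 2 lists can give). The eIF3a replicates spanned both eIF3b values (exact permutation test, two-sided, p = 1.00).

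**Figure D1:**
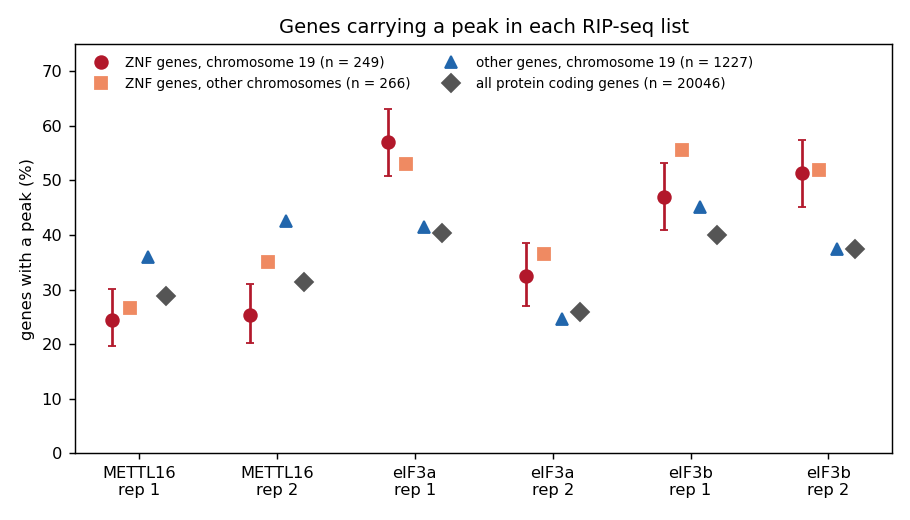
Percent of genes with at least 1 peak (y axis) in each of the 6 lists (x axis), for ZNF genes on chromosome 19, ZNF genes elsewhere, other chromosome 19 genes and all protein coding genes; bars on the first set are 95% Wilson intervals, which cover counting error only. The chromosome 19 ZNF genes sit at 24.5% and 25.3% for METTL16 and between 32.5% and 57.0% for eIF3a and eIF3b.

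The order of the proteins was lost in another choice of peaks. When each list was limited to its 5000 peaks of smallest p-value, the shares became 10.0% and 7.23% for METTL16, 9.24% and 7.23% for eIF3a, and 8.03% and 10.4% for eIF3b. The proteins then overlapped, and every list lay below the 14.4% to 15.8% of all protein coding genes. With peaks of at least 4-fold enrichment only, METTL16 had 20.1% in both replicates, eIF3a 41.0% and 24.9%, and eIF3b 35.3% and 40.2%, and all 6 lists lay above all protein coding genes, at ratios of 1.21 to 2.14. METTL16 then stayed the lowest. Peak strength and list length change together in the first choice and were not separated. Whether the genes stood above or below the other genes was therefore set by the peaks that were counted.

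The chromosome and the gene family were also looked at apart. Other protein coding genes of chromosome 19 had a peak in 35.9% and 42.6% of cases for METTL16, above the ZNF genes beside them, but in 41.4%, 24.7%, 45.2% and 37.4% in the eIF3 lists, below them. ZNF genes of other chromosomes, 266 in number, had a peak in 26.7% and 35.0% for METTL16 and in 53.0%, 36.5%, 55.6% and 51.9% in the eIF3a and eIF3b lists. Base composition also differed between the lists. The mean GC content of the ZNF peaks was 56.0% and 58.0% for METTL16, 49.2% and 49.4% for eIF3a, and 53.1% and 48.6% for eIF3b. Over all peaks it was 59.0% and 60.8%, 53.7% and 53.1%, and 58.1% and 54.1%. The eIF3a lists had nearly the same GC content but held 57.0% and 32.5% of the chromosome 19 ZNF genes. The part of base composition in the difference between proteins was not tested.

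Over all lists, 185 of the 249 genes (74.3%) had at least 1 peak, beside 53.6% of all protein coding genes, 55.3% of the other chromosome 19 genes and 69.2% of ZNF genes elsewhere. Counted by name, 37 members had a peak in 1 list, 35 in 2, 38 in 3, 26 in 4, 28 in 5 and 21 in all 6. The 21 genes in all 6 lists were 8.43% of the 249, beside 13.6% of all protein coding genes. No member was found in METTL16 replicate 1 alone and 3 in METTL16 replicate 2 alone. The eIF3a replicates held 10 and 7 members that no other list had, and the eIF3b replicates 6 and 11. The lists differ in length, and no share of such genes over all protein coding genes was computed, so these counts are not compared between proteins. The family's share was thus above that of genes in general for a peak in any list, and below it for a peak in every list.

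Genes with a peak in both replicates of a protein were called bound. METTL16 bound 35 of the 249 genes (14.1%), beside 22.9% of all protein coding genes. eIF3a bound 66 (26.5%), beside 22.8%, and eIF3b bound 91 (36.5%), beside 32.2%. Replicates shared a smaller part of the ZNF genes than of genes in general: of the genes with a peak in any METTL16 list 38.6% had one in both, and the eIF3a and eIF3b shares were 41.8% and 59.1%, against 61.1%, 52.3% and 71.1% over all protein coding genes. Among members, 113 were bound by some protein, a count for which no share over all genes was computed. The 21 bound by all 3 were 8.43% of the 249 genes, beside 13.6% of all protein coding genes. Of the 34 members bound by METTL16, 64.7% were also bound by eIF3a and 82.4% by eIF3b, near the 61.2% and 85.6% over all genes. In the other direction the shares were lower than over all genes: 33.3% of eIF3a-bound and 30.8% of eIF3b-bound members were also bound by METTL16, against 61.5% and 60.9%.

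The second question was where on these transcripts the peaks lay. In 180 of the 183 members with a recognised finger array (98.4%), the array lay wholly in the last coding exon. An array held a median of 12 fingers. The centre of a peak fell in the coding part of the last coding exon for 24.3% and 37.5% of member peaks for METTL16, 36.9% and 29.7% for eIF3a, and 28.2% and 41.4% for eIF3b. It fell in the 3′ UTR for 56.1% and 38.5%, 41.2% and 42.0%, and 45.2% and 39.0%. The coding part of the last coding exon held 6.20% to 12.9% of all peaks over all genes, so its share was higher for the ZNF genes in every list, and so was its share of their exon bases. ZNF genes of other chromosomes had 22.9%, 36.7%, 33.8%, 18.8%, 30.1% and 32.9% of peaks there, so the position was shared with the family elsewhere.

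The lengths of the regions differed in the same direction. In the members with a peak, the coding part of the last coding exon made up 30.8% to 34.1% of exon bases and the 3′ UTR 54.7% to 58.9%. Against these lengths, the 3′ UTR share of peaks was below its share of bases in every list, at ratios of 0.698 to 0.962. Over all genes the 3′ UTR ratios were 0.509 to 0.785. The last coding exon lay on both sides of its length share, at ratios of 0.749 to 1.21. For that exon the ratios were 0.988 to 1.67 over all genes and 1.05 to 1.77 in ZNF genes elsewhere. Both were above the members' ratio in every list. The coding exons before the last carried 9.49% to 18.8% of peaks on 4.74% to 6.02% of exon bases. Their ratios of 1.72 to 3.98 were the highest of the regions in every list. The corresponding ratios were 1.17 to 1.35 over all genes and 1.48 to 1.83 in ZNF genes elsewhere. The member ratios rest on 11 to 41 peaks per list. These earlier exons code for the KRAB domain where there is one.

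**Figure D2:**
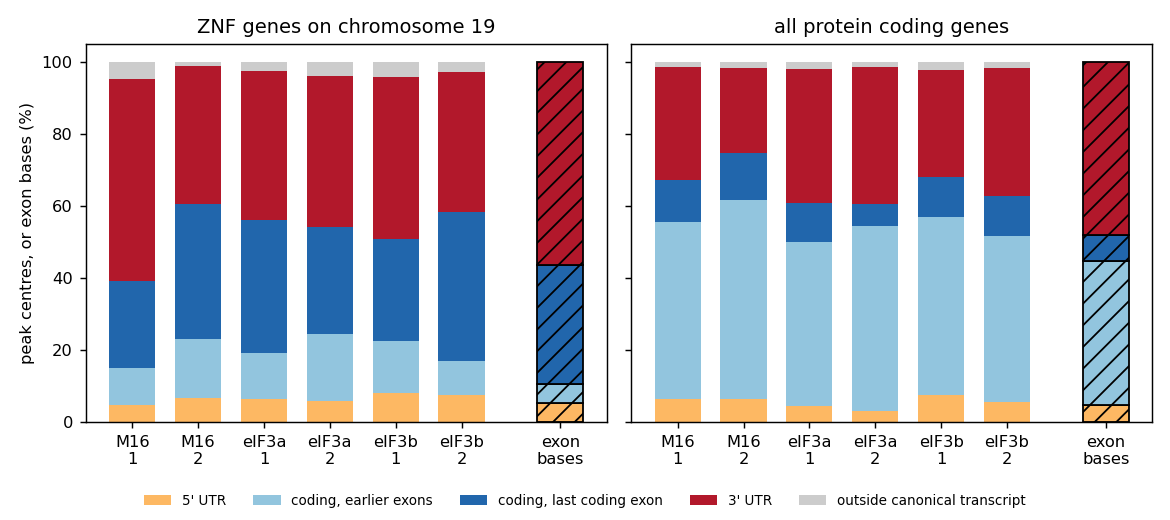
Share of peak centres (y axis, percent) by transcript region in each list (x axis, M16 is METTL16), for ZNF genes on chromosome 19 on the left and all protein coding genes on the right; the hatched bar gives the share of exon bases in each region, averaged over the 6 lists. In the ZNF genes the last coding exon holds 24.3% to 41.4% of peaks on 30.8% to 34.1% of bases, and the earlier coding exons 9.49% to 18.8% on 4.74% to 6.02%.

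Peaks centred on the finger array itself were 14.0% and 25% of member peaks for METTL16, 27.5% and 23.2% for eIF3a, and 21.8% and 28.8% for eIF3b. For ZNF genes of other chromosomes the array share was 25% to 33.1%, above that of the members in 5 of 6 lists. METTL16 replicate 1 was the lowest list for the array and for the last coding exon and the highest for the 3′ UTR, and METTL16 replicate 2 lay among the eIF3 lists for the first 2 and was the lowest for the 3′ UTR. No difference between proteins in these region shares exceeded the spread between replicates, with exact permutation p from 0.667 to 1.00 (two-sided). In the last coding exon METTL16 had a mean share of 30.9% ± 9.33, eIF3a of 33.3% ± 5.07 and eIF3b of 34.8% ± 9.28 (SD, n = 2). The mean share in the 3′ UTR was 47.3% ± 12.5, 41.6% ± 0.551 and 42.1% ± 4.37 (SD, n = 2).

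The linker sites shown above were seldom under a peak. Among genes with a peak in the list, 0.702% and 9.39% of linker sites lay under one for METTL16, 9.16% and 7.17% for eIF3a, and 5.24% and 12% for eIF3b. METTL16 replicate 1 covered 2 of 285 sites and replicate 2 covered 23 of 245, so the protein had no stable value. By bases, peaks covered 4.51% and 10.7% of the array for METTL16, 10.4% and 8.80% for eIF3a, and 8.93% and 13.7% for eIF3b, and 4.53% to 9.01% of the 3′ UTR. Repeated sequence limits how reads can be assigned in such arrays. At a median gene, 3.16% of all 50-base words of the transcript also occurred in another gene, and 12 of the 249 genes shared at least 50% of them. Genes annotated at the same place were counted as another gene, such as the read-through gene ZNF625-ZNF20, which had the highest share, 98.3%. The measure is therefore not one of repeated sequence alone. In member peaks the mean was 10.1% to 11.3% per list.

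Peaks were also placed by their distance from the stop codon, with negative values before it. The median peak centre lay at 265 bases in METTL16 replicate 1 and at -294 bases in replicate 2. The eIF3a medians were -334 and -368 bases and the eIF3b medians -162 and -388. Only 3.85% to 6.54% of member peaks covered the stop codon and 7.69% to 12.3% the start codon. Within the 3′ UTR the median peak lay 1290 to 1871 bases past the stop codon, about the middle of the UTR, with relative positions of 0.442 to 0.539, and 13.8% to 35.0% lay in its first 500 bases. Peaks were thus spread along the transcripts and had no single place of concentration at the stop codon.

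**Figure D3:**
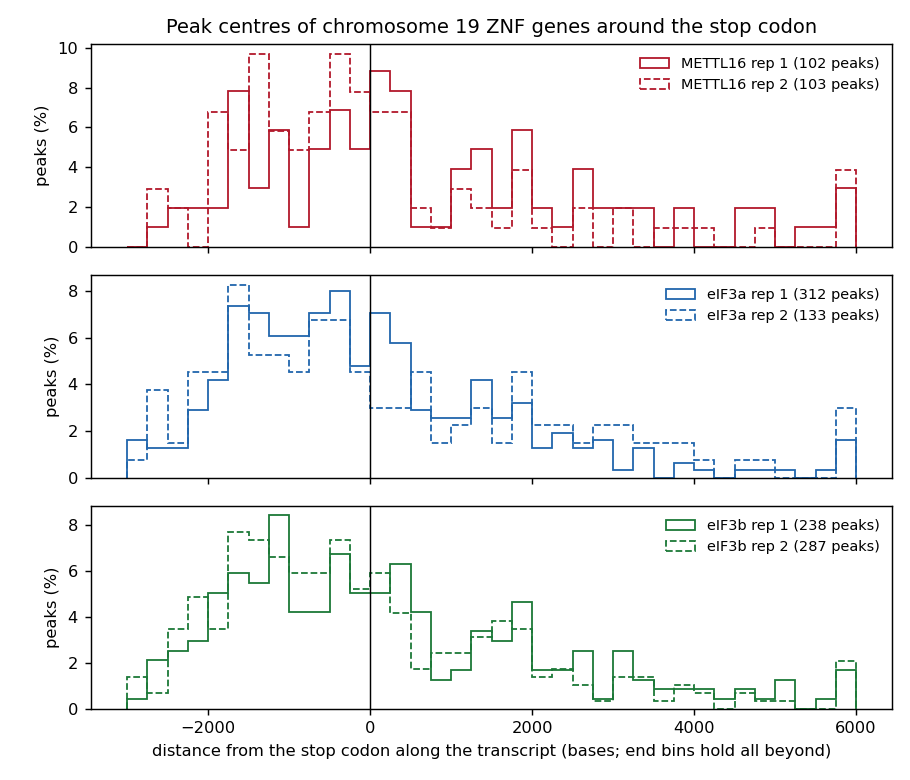
Distribution of peak centres of chromosome 19 ZNF genes along the transcript (x axis, bases from the stop codon, negative before it; y axis, percent of the list's peaks per 250-base bin), 1 panel per protein, with solid lines for replicate 1 and dashed lines for replicate 2. Peaks spread over both sides of the stop codon, with medians between -388 and 265 bases.

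Fold enrichment over input set the ZNF peaks apart from other peaks. The median was 9.93 and 6.91 for METTL16, 4.63 and 5.00 for eIF3a, and 6.37 and 5.51 for eIF3b, against 2.73 to 3.40 over all peaks of the lists and 3.17 to 4.17 over peaks of ZNF genes elsewhere. The p-values went the other way: the median −log10 p of member peaks was 4.52, 4.58, 3.90, 4.24, 4.92 and 3.93 in the same order, and that of all peaks was higher in every list, at 4.78 to 7.10. Peaks of high fold and modest p-value were therefore typical of these genes. Read counts were not used here, and the number of reads behind these ratios is unknown.

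The high folds lay in the 3′ UTR more than in the last coding exon. For METTL16 the median fold was 16.7 and 10.7 in the 3′ UTR against 5.26 and 5.96 in the coding part of the last coding exon. For eIF3a it was 7.44 and 5.71 against 3.84 and 3.40, and for eIF3b 11.6 and 9.54 against 4.04 and 4.68. The 3′ UTR was higher in 6 of 6 lists. Over all genes the corresponding medians were 2.81 to 3.97 in the 3′ UTR and 2.45 to 3.64 in the last coding exon, so both regions of the ZNF genes stood above the same regions of genes in general.

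**Figure D4:**
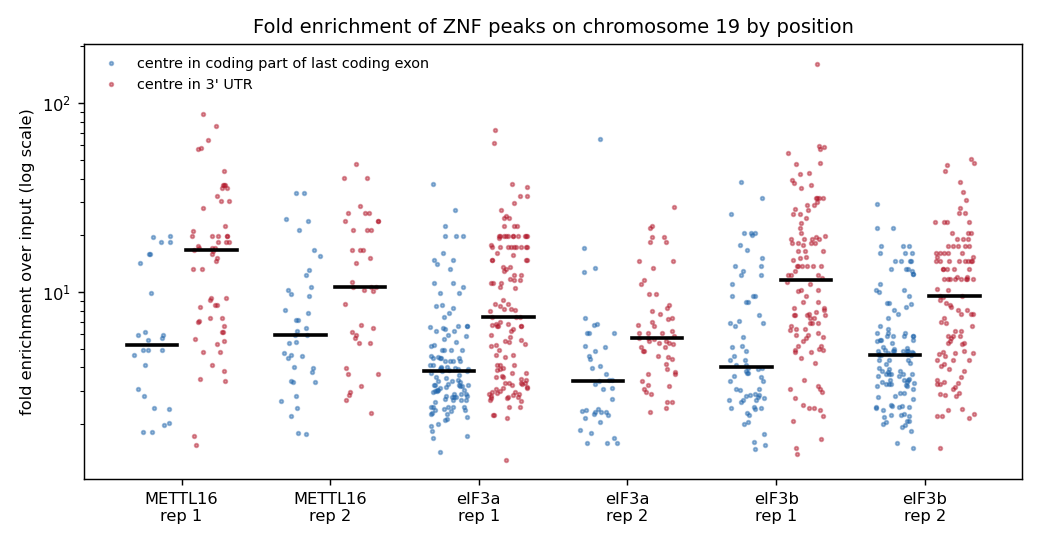
Fold enrichment over input of each member peak (y axis, log scale) in each list (x axis), for peaks centred in the coding part of the last coding exon and in the 3′ UTR; each point is a peak and black lines are medians. The 3′ UTR median lies above the coding median in all 6 lists, at 16.7 against 5.26 in METTL16 replicate 1 and 5.71 against 3.40 in eIF3a replicate 2.

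The 9 letters from Alu, shown in the windows above and searched on both strands, were frequent in these 3′ UTR peaks. They occurred in 36.7% and 30.0% of member 3′ UTR peaks for METTL16, 25% and 32.8% for eIF3a, and 34.8% and 20.9% for eIF3b. Windows of the same width taken along the 3′ UTRs of the same genes held them in 16.3%, 11.3%, 14.6%, 13.7%, 16.9% and 14.0% of cases, so the peaks were above their windows in every list. Because the letters were chosen after these peak sequences had been seen, this excess is a description and not a test. In other chromosome 19 genes, 5.59% to 7.81% of 3′ UTR peaks held the letters, beside 4.06% to 8.17% of their windows. The letters occurred in 1 member peak of the last coding exon, in METTL16 replicate 1, and in none in the other 5 lists.

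Fold enrichment was higher in the 3′ UTR peaks with the letters in some lists. The medians with and without them were 20.5 and 8.61 in METTL16 replicate 1, 11.8 and 6.40 in eIF3a replicate 1, 18.2 and 7.55 in eIF3b replicate 1, and 16.5 and 8.32 in eIF3b replicate 2. In METTL16 replicate 2 they were 11 and 10.5, and in eIF3a replicate 2 they were 5.87 and 5.71. The METTL16 and eIF3a lists thus showed a gap in replicate 1 and little in replicate 2. Alu copies are alike across the genome, and how reads that map to several places were treated is not given in the sources used here. Its part in these folds was not tested.

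Peaks of the ZNF genes were narrow and mostly lay within 1 exon. Their median width was 151 and 164 exonic bases for METTL16, 151 and 151 for eIF3a, and 181 and 180 for eIF3b, against 180, 180, 180, 210, 210 and 181 over all peaks. The ZNF median was the smaller in every list, but nearly equal in eIF3b replicate 2, at 180 against 181. Widths clustered at a few values, among them 151, 180 and 210 bases, so the gaps between medians are coarse. ZNF genes of other chromosomes had medians of 151, 151, 151, 210, 209 and 180 bases, equal to or below those of the members in 4 of 6 lists, so narrow peaks were not particular to chromosome 19. Peaks of at least 1000 bases were 0.339% to 2.90% of member peaks and 1.65% to 6.56% of all peaks. Between 73.2% and 87.9% of member peaks were a single exonic block, against 54.3% to 62.1% of all peaks.

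ZNF101, ZNF329, ZNF264, ZNF562, ZNF587, ZNF587B, ZNF714 and ZNF699 were among the 10 members with the best rank over all 6 lists, and ZNF444 and ZNF787 were the other two. The rank was that of the gene's smallest p-value among the members of each list. In the first 8 genes the strongest peak lay in the 3′ UTR in most lists. In ZNF444 and ZNF787 it lay in coding or 5′ sequence in every list. The 2 groups also differed in base composition, with GC contents of the transcript of 36.8% to 45.7% in the 8 genes and 68.7% and 70.4% in ZNF444 and ZNF787.

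ZNF699 (chr19:9291140-9309838, minus strand, 14 fingers) gave the simplest case. A stretch at chr19:9292395-9292544 in its 3′ UTR lay under a peak in all 6 lists, centred 2990 to 3020 bases past the stop codon. The fold there was 17.5 and 10.2 for METTL16, 36.1 and 6.63 for eIF3a, and 8.24 and 9.46 for eIF3b. The eIF3a replicates held both the highest and the lowest value, so the proteins overlapped. No 50-base word of these peaks occurred in another gene. It was the only peak of the gene in 5 lists, and METTL16 replicate 2 held a further 3′ UTR peak of 23.8-fold.

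ZNF264 (chr19:57191500-57222846, plus strand, 13 fingers) held the most peaks of any member in 5 of the 6 lists. It had 9 and 7 peaks for METTL16, 10 and 6 for eIF3a, and 10 and 9 for eIF3b, and ZNF587 led eIF3a replicate 2 with 9. Its 3′ UTR is 9865 bases long. The peak around the window shown above had a fold of 75.5 and 10.7 for METTL16, 19.8 and 5.51 for eIF3a, and 42.2 and 34.1 for eIF3b. Peaks on its finger array had 2.03 and 3.33, 2.28 and 2.31, 3.81 in eIF3b replicate 1, and 1.94 and 2.07 in replicate 2, so the array was below the 3′ UTR site in every list.

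ZNF101 (chr19:19668796-19683509, plus strand, 9 fingers) had 6 peaks in each METTL16 list, 5 and 4 for eIF3a and 6 in each eIF3b list. At its window the fold was 57.0 and 6.19 for METTL16, 32.2 and 5.87 for eIF3a, and 18.2 and 30.8 for eIF3b. The second replicate was the low one for METTL16 and eIF3a. On its array the peaks had a fold of 2.41 in METTL16 replicate 1, 2.71 in eIF3a replicate 1, and 3.74 and 4.15 in the eIF3b lists, with none centred there in the other 2 lists. Its 1104-base peak in eIF3a replicate 1 was among the 2 member peaks of at least 1000 bases in that list.

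ZNF329 had 2 peaks in every list, and the fold of the stronger by p-value was 15.2 and 5.36 for METTL16, 8.19 and 3.79 for eIF3a, and 27.2 and 6.85 for eIF3b. The strongest peak of ZNF714 by p-value had 63.6 and 26.2, 19.8 and 22.0, and 39.1 and 50.7. ZNF562 had at its window 9.12 and 11.3, 17.7 and 3.23, and 58.6 and 9.10. In ZNF329 and ZNF562 the values of all proteins overlapped. In ZNF714 the strongest peaks came from different places of the 3′ UTR in different lists, so they are not compared between proteins.

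ZNF587 and ZNF587B are neighbours, and 24.6% and 13.8% of their 50-base words occurred in another gene. The strongest peak of ZNF587 had a fold of 27.8 and 3.69 for METTL16, 11.8 and 22.4 for eIF3a, and 28.9 and 12 for eIF3b. That of ZNF587B had 32.2 and 47.6, 25.3 and 28.1, and 37.7 and 13.2. Both genes had their strongest peak in the 3′ UTR in every list, and with the words they share with other genes their levels are uncertain.

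ZNF444 (chr19:56132599-56160893, plus strand, 4 fingers) showed the other pattern. A peak over 5 exonic blocks that covered the start codon was found in every list, with a fold of 8.09 and 8.04 for METTL16, 5.04 and 4.44 for eIF3a, and 9.56 and 6.43 for eIF3b. The eIF3a values were the lowest and did not overlap with the others (exact permutation test, two-sided, p = 0.333 against either protein, the smallest possible). The gene was chosen by its peaks in these same lists, so the values are a description and no support for a difference. The peak was 927 to 1106 bases wide in 5 lists, and in eIF3b replicate 1 it ran on through the stop codon to 1942 bases, the widest member peak of any list. No 50-base word of this gene occurred in another.

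ZNF787 (chr19:56087366-56121295, minus strand, 7 fingers) had a strongest peak of 29.1 and 24.4-fold for METTL16, 8.61 and 2.31 for eIF3a, and 14.4 and 11 for eIF3b. These peaks lay in the 5′ UTR, the earlier coding exons or the last coding exon, depending on the list. The peaks came from different places, and the gene was chosen by its peaks in these same lists. The folds are therefore not compared between proteins. The METTL16 replicate 2 peak was 1635 bases wide and the third widest of any member. ZNF8, which held the second widest at 1792 bases in eIF3a replicate 2, had a 5′ peak of 236-fold in METTL16 replicate 1, while its strongest peaks in the other 5 lists had 2.61 to 12.8. In the peaks of ZNF8, 75.7% to 100% of the 50-base words occurred in another gene, against 22.3% over its transcript. Genes annotated at the same place count as another gene here, so whether its reads can be assigned with certainty is unknown.

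Bound by METTL16 without a peak in any eIF3 list was 1 member, ZNF627, with a fold of 3.97 and 16.7 in its first exons. Bound by both eIF3 subunits without a METTL16 peak were 8 members, of which 5 were chosen by their eIF3b fold. ZNF570 had a 3′ UTR peak at the same place in the 4 eIF3 lists, with a fold of 8.68 and 18.4 for eIF3a and 10.3 and 14.7 for eIF3b. In ZNF83 the strongest peak had 6.43 and 3.28 for eIF3a and 5.42 and 8.07 for eIF3b, with peaks on the finger array in all 4. ZNF548 had peaks on the array in all 4 lists, and its strongest had 4.31 and 2.32, and 3.96 and 4.96. ZNF347 had 4.46 and 2.99 for eIF3a, 5.95 in eIF3b replicate 1 and a higher value in eIF3b replicate 2, and ZNF761 had 3.31 and 1.74, and 3.83 and 4.40. The lack of a METTL16 peak was not a test of a difference, and METTL16 lists were shorter than 3 of the 4 eIF3 lists. No member was bound by METTL16 and eIF3b without an eIF3a peak. Shares of these patterns over all protein coding genes were not computed, so the counts are not read as a trait of these genes.

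The 21 genes in all 6 lists often shared the same bases. In 17 of them some exonic base lay under a peak in every list, and 12 had at least 100 such bases. Of the 4356 shared bases, 67.1% lay in 3′ UTRs, 13.9% in the coding part of the last coding exon and 6.22% on a finger array. The shared bases touched the 3′ UTR in 14 genes and the array in 2, ZNF444 and ZNF579. In ZNF8, ZNF611, ZNF805 and ZNF814 no base was common to the 6 lists.

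The share of genes with a peak was higher in GC-rich than in AT-rich genes in both METTL16 lists and in replicate 1 of eIF3a and eIF3b. In eIF3b replicate 2 it was nearly equal, and in eIF3a replicate 2 it was lower. Whether a gene codes for a KRAB domain was not examined. Among 75 genes with a transcript GC content under 40%, METTL16 had a peak on 17.3% and 10.7%, eIF3a on 46.7% and 33.3%, and eIF3b on 38.7% and 44%. Among the 20 genes with 60% or more, METTL16 had a peak on 70.0% and 85.0%, eIF3a on 70.0% and 25%, and eIF3b on 80.0% and 45%. METTL16 was thus the lowest in the AT-rich genes and among the highest in the GC-rich ones, and bound 14 of those 20 genes, where eIF3a bound 5 and eIF3b 9. The classes were set after the values had been seen and carry no test. No share of all protein coding genes in these GC classes was computed. Over all peaks the METTL16 lists also had the highest GC content, at 59.0% and 60.8%, against 53.1% to 58.1% in the eIF3 lists. Whether the pattern is particular to the ZNF genes or holds for GC-rich transcripts in general was not tested.

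The GC-rich members bound by METTL16 were ZNF865, ZNF628, ZNF787, ZNF580, ZNF358, ZNF444, ZNF296, ZNF579, ZNF653, ZNF784, ZNF414, ZNF574, ZNF581 and ZNF428. Without the 20 GC-rich genes the shares of the remaining 229 were 20.5% and 20.1% for METTL16, 55.9% and 33.2% for eIF3a, and 44.1% and 52.0% for eIF3b, with the same separation. The median GC content of the METTL16-bound genes was 45.7%, against 42.4% over the 249 genes. The genes without a peak in any list had 41.4%.

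**Figure D5:**
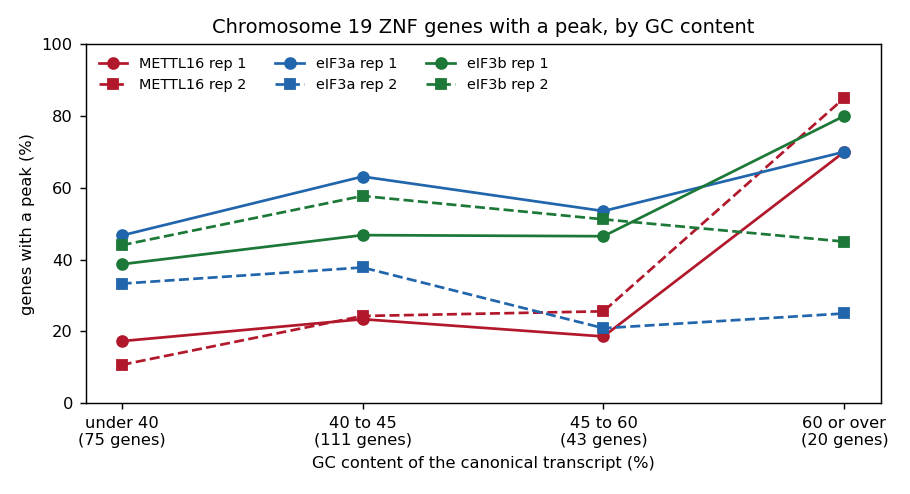
Percent of annotated chromosome 19 ZNF genes with a peak (y axis) in 4 classes of transcript GC content (x axis), 1 line per list, with solid lines for replicate 1 and dashed lines for replicate 2. Both METTL16 lists lie at 10.7% to 25.6% in the 3 lower classes and at 70.0% and 85.0% in the highest.

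Genes in all 6 lists were longer than the others, with a median transcript of 4642 bases and a median 3′ UTR of 3206 bases. Genes in 1 to 5 lists had 3982 and 1728 bases and genes in none had 3391 and 1334. The number of fingers did not follow this order, with medians of 13, 12 and 13. The annotated genes without a peak that had the greatest total exon length were ZNF568, ZNF793, ZNF208, ZNF577 and ZNF536, with 18608 to 10310 bases. ZNF208 had 36 fingers, the most of the family.

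Along the chromosome, gaps of over 1 Mb divided the 249 genes into 16 clusters. The largest, at the end of the long arm (chr19:55476617-58481230), held 59 genes, of which METTL16 bound 16 (27.1%), eIF3a 16 (27.1%) and eIF3b 30 (50.8%), beside 22.9%, 22.8% and 32.2% of all protein coding genes. It also held 12 of the 21 genes found in all 6 lists, among them ZNF264, ZNF329, ZNF444, ZNF587, ZNF587B and ZNF787. In the cluster of 40 genes at chr19:51571283-53580269 the bound shares were 7.5%, 27.5% and 40% in the same order, and in the cluster of 37 genes at chr19:19668796-24129968 they were 5.41%, 27.0% and 24.3%. In these 3 clusters the eIF3a share was thus nearly the same, and the METTL16 and eIF3b shares were highest in the first. Smaller clusters varied. METTL16 bound 31.2% of 16 genes at chr19:7069703-9793180, more than in the first. METTL16 and eIF3a bound 7.69% and 26.9% at chr19:11483427-12640098, and 7.69% and 34.6% at chr19:36182276-37817300. At chr19:43525497-45076478 they bound 8.33% and 12.5%. Median GC content was 46.0%, 41.2% and 36.8% in the 3 largest clusters, and its part in the shares was not tested. Of all members' peaks, 3.74% to 7.46% per list also lay on an exon of another gene of the same strand.

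The proteins through which KRAB zinc finger proteins silence chromatin were listed apart from the members. All 12 co-repressor genes had a peak in some list and 8 had one in all 6, and METTL16 bound 8, eIF3a 11 and eIF3b 11. Over all protein coding genes, 53.6% had a peak in some list and 13.6% in all 6, and 22.9%, 22.8% and 32.2% were bound. Those in all 6 lists were TRIM28, the KRAB-binding scaffold, SETDB1, its histone methyltransferase, CBX3, a heterochromatin protein, MPHOSPH8, TASOR and MORC2 of the HUSH silencing machinery, and DNMT1 and UHRF1 of DNA methylation. TRIM28 had a fold of 2.77 and 11.1 in its strongest METTL16 peaks, 2.01 and 1.63 for eIF3a, and 2.54 and 1.93 for eIF3b. ATF7IP had no METTL16 peak and a peak in all 4 eIF3 lists. The list was chosen by function and is given as counts only.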

How the data were processed

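HepG2 RIP-seq peak lists, 2 replicates for each of METTL16, eIF3a and eIF3b, were used. The study's methods call the replicates biological. Reads had been aligned by the authors with STAR (GRCh38), and exomePeak with its default settings had called the peaks, giving 1 list for each RIP sample. Versions, the annotation and the pairing of inputs are not given in the sources used here, and the inputs have no list of their own. The authors deposited for each peak its exonic blocks, a gene name, a p-value, the log of the p-value and adjusted p-value (a score) and its fold enrichment over input, a ratio. Members and lists were chosen with earlier results of these data known.

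Peaks were placed by their exonic centre on the canonical GENCODE 44 transcript, and fingers were found by their C2H2 pattern in translated coding sequence. A gene was bound when both replicates held a peak. Protein differences were tested by exact permutation over lists. Wilson intervals (95%) on shares cover counting error alone. Depth is unknown. The named genes were the 10 in all 6 lists of best worst rank, up to 5 per pattern of binding, the 3 of widest peak, the 5 longest without a peak, and the co-repressors. The Alu letters and GC classes were set after values were seen. Alternatives were a 4-fold minimum, 5000 peaks per list, other denominators and definitions, and leaving out each replicate. Python 3.11.15, numpy 2.4.6, scipy 1.17.1 and Biopython 1.88 were used, and peak placement was tested on simulated data. Some sequence windows are not reported here.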

Additional observations from a re-analysis of the deposited data

How the results depend on the processing

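The 2 replicates per protein, the unknown depth and the unequal list lengths limit every comparison. Of 108 recomputed differences between proteins, 85 kept their direction, and of 120 recomputed values 70 moved by less than the replicate SD (or less than 1.5 times for counts). Part of both counts was fixed in advance. With 2 replicates, leaving a replicate out can never move a mean by more than the SD. Using the replicate number as a block leaves every difference unchanged.

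With the 5000 peaks per list of smallest p-value, the mean shares of genes with a peak were 8.63%, 8.23% and 9.24% (METTL16, eIF3a, eIF3b, here and below), and METTL16 minus eIF3a turned to 0.402 points. Bound genes were 15, 9 and 15. Median width was 270, 359 and 367 bases and median fold 15.7, 6.65 and 14.1. The eIF3a share in the last coding exon was 22.5%, the 3′ UTR share 51.2% (eIF3a) and 54.4% (eIF3b), and the array share 13.9% and 18.2%. METTL16 minus eIF3a turned to 5.05 in the last coding exon and 0.0695 on the array, METTL16 minus eIF3b to -0.642 in the 3′ UTR, and eIF3a minus eIF3b to -4.28 on the array. Fewer peaks entered here by construction.

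With at least 4-fold enrichment, the share was 20.1% (METTL16) and 37.8% (eIF3b), bound genes 42 (eIF3a) and 60 (eIF3b), and median width 180, 166 and 195 bases. The eIF3a last coding exon share was 23.6%, the 3′ UTR share 50.5% and 53.5%, and the array share 16.4% and 20.0% for eIF3a and eIF3b. METTL16 minus eIF3a turned to 4.48 in the last coding exon and 2.56 on the array, METTL16 minus eIF3b to -1.63 in the 3′ UTR, and eIF3a minus eIF3b to -3.68 on the array. The cause was not tested.

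Over genes with a peak in any list, the share was 33.5% (METTL16) and 66.2% (eIF3b). With a peak in either replicate, 89, 157 and 154 genes were bound. By genomic span, median width was 180, 194 and 196 bases. With 1 peak per gene, it was 180, 166 and 195 bases, the median fold 11.2, 6.07 and 7.11, the eIF3a 3′ UTR share 33.1% and the array share 21.3% and 18.5% for eIF3a and eIF3b. By peak bases, the eIF3a 3′ UTR share was 39.9%, METTL16 minus eIF3b in the last coding exon 0.0218 and eIF3a minus eIF3b 2.11.

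Leaving out each replicate in turn, METTL16 held 61 to 63 genes, eIF3a 81 to 142 and eIF3b 117 to 128, where a single list then defined a bound gene. In the share of genes, METTL16 minus eIF3a ran from -32.1 to -7.63, the latter without eIF3a replicate 1, METTL16 minus eIF3b from -26.5 to -22.1 and eIF3a minus eIF3b from -16.7 to 7.83. In the last coding exon the differences ran from -8.99 to 4.21 (METTL16 minus eIF3a), -10.5 to 2.71 (METTL16 minus eIF3b) and -8.06 to 5.07 (eIF3a minus eIF3b). In the 3′ UTR they ran from -3.18 to 14.4, -3.61 to 14.0 and -3.52 to 2.66, and on the array METTL16 minus eIF3a ran from -11.3 to -0.344, METTL16 minus eIF3b from -11.3 to -0.294 and eIF3a minus eIF3b from -3.47 to 3.57. The values nearest 0 for METTL16 on the array were those without METTL16 replicate 1.

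With the replicate number as a block (replicate block), the METTL16 share of genes was 19.9 points lower than eIF3a and 24.3 points lower than eIF3b. These differences of -19.9 and -24.3 cannot change with the pairing. The exact sign-flip test over 2 pairs cannot go below p = 0.5. No source says that a number marks a shared batch, and deviations of same-numbered lists correlated at -0.077 to 0.033 across the 249 genes.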
